A study of Mus musculus with 10 samples.

Results

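Fos, Fosb, Fosl2, Jun, Junb and Jund are the 6 genes described here, chosen by name as the Fos and Jun subunits of the transcription factor AP-1 from the 47729 genes of the count table. They were followed across 10 RNA sequencing libraries of mouse brain. All mice were of the outbred CF1 strain and were 56 days old. LP libraries came from offspring whose parents ate a low-protein diet during mating and whose dams stayed on it through pregnancy and lactation, and NP libraries from offspring of parents and dams kept on a normal-protein diet. All parents had eaten NP diet just before mating, and all pups were weaned at day 21 and then kept on NP diet, so that at sampling both groups ate the same food. The LP libraries were male hypothalamus, female hippocampus, male hippocampus, female prefrontal cortex and male prefrontal cortex, and the NP libraries were of the same 5 kinds, with 1 library each. The series asks how the perinatal diet bears on the adult brain. The labels do not say whether a library is 1 animal or a pool, nor whether libraries of different regions came from the same animals. Libraries of the same sex and diet may thus not be independent. The p-values rest only on the spread between these libraries, which is in part shared over all genes.

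AP-1 is a pair of proteins held together by a leucine zipper. Jun proteins can pair with each other or with a Fos protein, whereas Fos proteins need a Jun partner, and the pair binds short DNA elements in promoters and enhancers of genes for growth, stress and synaptic responses. In neurons Fos, Fosb and Junb are immediate early genes, switched on within minutes of calcium entry through CREB and serum response factor and silenced soon after, and Fos is widely used as a mark of recently active neurons. Fosl2 encodes Fra-2, which is made later and lasts longer, and Fosb also yields the stable splice form known as deltaFosB. Jun is phosphorylated by JNK kinases in stressed and growing neurons, and Jund is made steadily in most cells.

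The start regions of 4 of the genes hold letters that such factors read, and are shown because these letters were found in them. Each line holds 120 bases before the start of the RefSeq promoter table (GRCm38.p6), on the gene's strand, with capitals for TGACG (the core of a CREB element), TGACATCA (the form through which Jun acts on its own gene), TATAAA and CCAAT.
Fos, chr12:85473770-85473889, plus strand: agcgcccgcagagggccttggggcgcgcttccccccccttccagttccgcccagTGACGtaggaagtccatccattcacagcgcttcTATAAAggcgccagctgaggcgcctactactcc
Fosb, chr7:19310046-19310165, minus strand: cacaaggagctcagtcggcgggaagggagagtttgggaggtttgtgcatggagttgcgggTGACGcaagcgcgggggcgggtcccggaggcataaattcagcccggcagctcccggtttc
Jun, chr4:95052223-95052342, minus strand: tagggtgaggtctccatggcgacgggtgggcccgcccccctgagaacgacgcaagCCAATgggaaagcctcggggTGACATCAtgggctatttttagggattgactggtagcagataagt
Junb, chr8:84978749-84978868, minus strand: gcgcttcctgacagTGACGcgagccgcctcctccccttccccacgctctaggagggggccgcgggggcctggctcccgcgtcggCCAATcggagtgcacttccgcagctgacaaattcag

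TGACG stood 66 bases before the start in Fos, 60 bases in Fosb and 106 bases in Junb, and Fos had another 129 bases before the start. TGACATCA stood 45 bases before the start of Jun. Windows of 300 bases, of which 250 lie before the start, were searched on both strands. TGACG was in 20.8% of the 32851 promoters of the table and TGACATCA in 3.62%, while TATAAA was in 13.6% and CCAAT in 37.4%. The full CREB element TGACGTCA, which contains TGACG and was in 1.79% of promoters, the AP-1 element TGACTCA (5.20%) and the CArG box (1.63%) were in none of the 6 members' windows. Fosl2 and Jund held none of the letters searched, and the table's start lay 671 bases from the start of the gene model for Fosl2, 1210 bases for Jund and 30 bases for Junb. Such matches are a description of the sequence and do not show a bound site. Bases beyond the windows were not searched, so a CArG box or other element further from the start would have been missed.

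Each gene model was taken from GENCODE M21 on GRCm38. Fos (ENSMUSG00000021250) lies at chromosome 12, 85473890 to 85477273, Jun (ENSMUSG00000052684) at chromosome 4, 95049034 to 95052222, and Fosb (ENSMUSG00000003545) at chromosome 7, 19302696 to 19310051. Fosl2 (ENSMUSG00000029135) lies at chromosome 5, 32135801 to 32157842. Junb (ENSMUSG00000052837) and Jund (ENSMUSG00000071076) share chromosome 8, at 84974484 to 84978718 and at 70698949 to 70700616. Reads from antisense partners could not be told apart, since the strand setting of the counting is not given in the sources used here. Jun shares 232 exon bases with Junos, which had 9 to 32 counts, and Jund shares 877 bases with Gm11175, which had 0 counts. Junb shares 173 exon bases with Prdx2, which had 1857 to 3410 counts, so its counts are the less certain.

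Total counts were 10256882 to 16265481 in 9 libraries. The NP library of female hippocampus held 7871010 counts and ended part of the way along chromosome 4, with chromosomes 5 to 9, X, Y and M at 0 too, so Fosb, Fosl2, Junb and Jund were treated there as not measured. Fos and Jun lie before the break and were measured in all 10 libraries. A count of 0 allows up to 3 counts, or 0.18 to 0.29 CPM (counts scaled to library size) in the complete libraries, and no member came near this level. Marker genes matched the labelled regions, with 10 of 10 hypothalamus markers, 7 of 8 hippocampus markers and 5 of 8 neocortex markers higher in every library of their region than elsewhere. Xist and Y-linked genes matched the labelled sex in the 9 complete libraries.

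After perinatal low protein, 4 of the 6 AP-1 genes were higher: Fosb, Fosl2 and Fos by 1.95, 1.85 and 1.62 times, and Jun by 1.36 times. Junb and Jund did not pass the test. Over all genes tested, 0.849% (149 of 17547) were called higher in LP by the same rule, which was edgeR's quasi-likelihood test over the pairs of LP and NP libraries of the same region and sex, with Benjamini-Hochberg adjusted p below 0.05. The median log2 difference was 0.57 over the 6 members and -0.00023 over all genes tested. The members were chosen with earlier results of these data known, so the contrast with all genes is a description only. In bulk tissue, more cells that make a transcript and more of it per cell cannot be told apart.

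Fos, the founding member of its family, had 71.4 CPM in the LP and 57.6 CPM in the NP library of male hypothalamus, 35.2 (LP) and 18.0 (NP) in female hippocampus, and 79.8 (LP) and 36.04 (NP) in male hippocampus. It had 144 CPM (LP) and 73.3 CPM (NP) in female prefrontal cortex and 268 (LP) and 208 (NP) in male prefrontal cortex. LP was above NP in each of the 5 pairs, although the ranges over all LP and all NP libraries overlapped. The log2 difference was 0.69 ± 0.11 (SE; edgeR, Benjamini-Hochberg adjusted p = 0.00923, 10 libraries). The pairs ran from 0.31 in hypothalamus to 1.15 in male hippocampus, and without the female prefrontal cortex pair the difference was 0.63 and no longer passed (adjusted p = 0.0606).

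Fosb, which encodes FosB and deltaFosB, had 13.2 CPM in the LP and 10.6 CPM in the NP library of hypothalamus, 44.6 (LP) and 17.5 (NP) in male hippocampus, 124 (LP) and 49.9 (NP) in female prefrontal cortex and 132 (LP) and 79.3 (NP) in male prefrontal cortex. The LP library of female hippocampus had 36.2 CPM and has no NP partner. LP was above NP in 4 of 4 pairs, and the female cortical LP level was close to the male one whereas the NP levels of the sexes lay further apart. Its log2 difference of 0.96 ± 0.13 (edgeR adjusted p = 0.0043, 8 libraries) was the largest of the 6, and was 0.82 (adjusted p = 0.0578) without the female prefrontal cortex pair.

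Fosl2 had 51.0 CPM in the LP and 31.5 CPM in the NP library of hypothalamus, 105 (LP) and 63.5 (NP) in male hippocampus, 184 (LP) and 81.8 (NP) in female prefrontal cortex and 190.4 (LP) and 101.0 (NP) in male prefrontal cortex. The LP library of female hippocampus had 96.3 CPM. LP was above NP in 4 of 4 pairs, and the pair log2 ratios ran from 0.70 in hypothalamus to 1.17 in female prefrontal cortex. The log2 difference was 0.88 ± 0.07 (edgeR adjusted p = 9.95e-05, 8 libraries), which ranked 10 by p among all genes tested. It passed in every alternative run, including those that left out a pair.

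Jun had 82.5 CPM in the LP and 49.9 CPM in the NP library of hypothalamus, 92.5 (LP) and 76.0 (NP) in female hippocampus, and 115 (LP) and 82.8 (NP) in male hippocampus. It had 55.3 CPM (LP) and 41.7 CPM (NP) in female prefrontal cortex and 88.2 (LP) and 71.4 (NP) in male prefrontal cortex. LP was above NP in 5 of 5 pairs, and the widest step was in hypothalamus (log2 ratio 0.72), where that of Fos was narrowest. The log2 difference was 0.44 ± 0.06 (edgeR adjusted p = 0.00466, 10 libraries).

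Junb, whose protein can restrain Jun in some settings, had 24.8 CPM in the LP and 31.9 CPM in the NP library of hypothalamus, 107 (LP) and 72.4 (NP) in male hippocampus, 164 (LP) and 106 (NP) in female prefrontal cortex and 231 (LP) and 212 (NP) in male prefrontal cortex. The LP library of female hippocampus had 82.1 CPM. LP was above NP in 3 pairs and below it in hypothalamus, and the log2 difference of 0.27 ± 0.12 did not pass (edgeR adjusted p = 0.338). Without the hypothalamic pair it was 0.42 and passed (adjusted p = 0.0216).

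Jund had 64.1 CPM in the LP and 72.9 CPM in the NP library of hypothalamus, 51.9 (LP) and 51.0 (NP) in male hippocampus, 87.8 (LP) and 74.9 (NP) in female prefrontal cortex and 92.1 (LP) and 86.2 (NP) in male prefrontal cortex. The LP library of female hippocampus had 56.4 CPM. The diets lay close together in each pair, and the log2 difference was 0.04 ± 0.07 (edgeR adjusted p = 0.859).

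**Figure D1:**
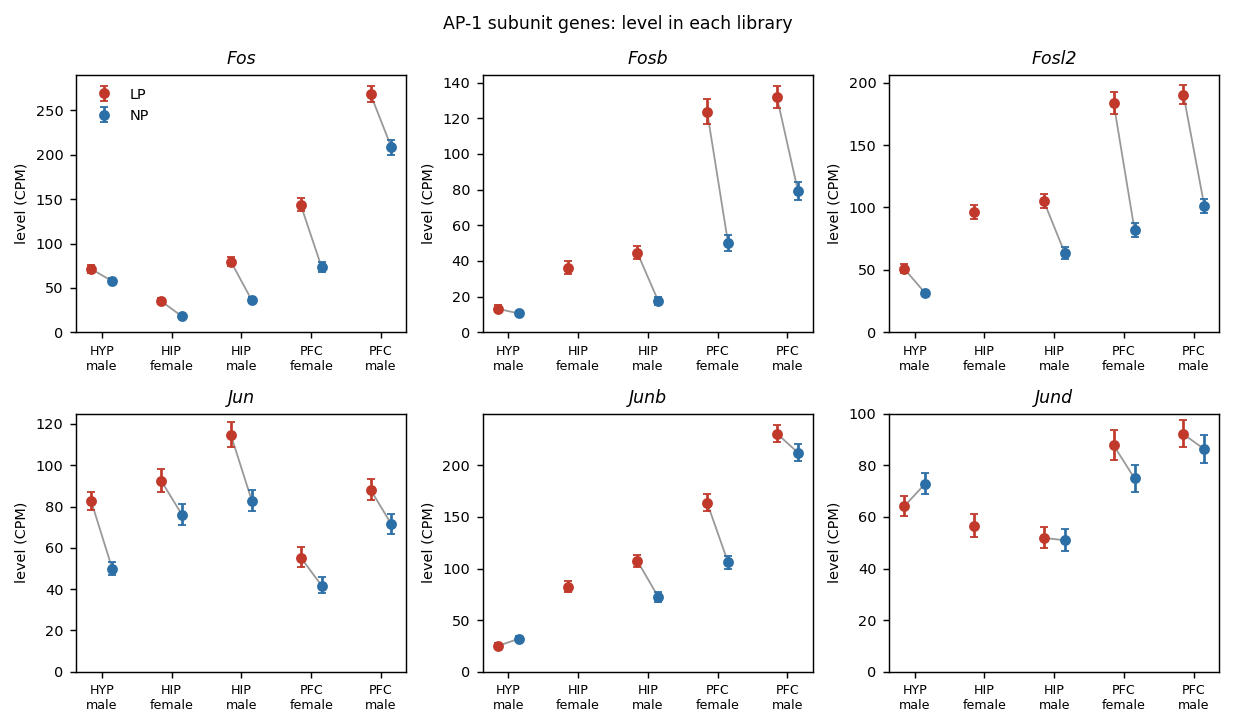
Level of each AP-1 gene (CPM, linear axis from 0) in LP (red) and NP (blue) libraries of hypothalamus (HYP), hippocampus (HIP) and prefrontal cortex (PFC), with exact 95% Poisson intervals of the counts and a grey line joining each pair. Fos, Fosb, Fosl2 and Jun stand higher in LP in every pair shown, Junb and Jund are lower in LP in hypothalamus, and the NP library of female hippocampus is missing for 4 genes.

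With 1 library for each region, sex and diet, a single pair has no replicate and was given with a 95% Poisson interval of its counts, which covers counting error only. Of 26 pair ratios over the 6 genes, 22 had intervals wholly above 0 on the log2 scale and 2 wholly below it. The 2 below 0 were in hypothalamus, with Junb at -0.36 and Jund at -0.18. Whether the pair is typical of its diets cannot be read from such an interval.

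**Figure D2:**
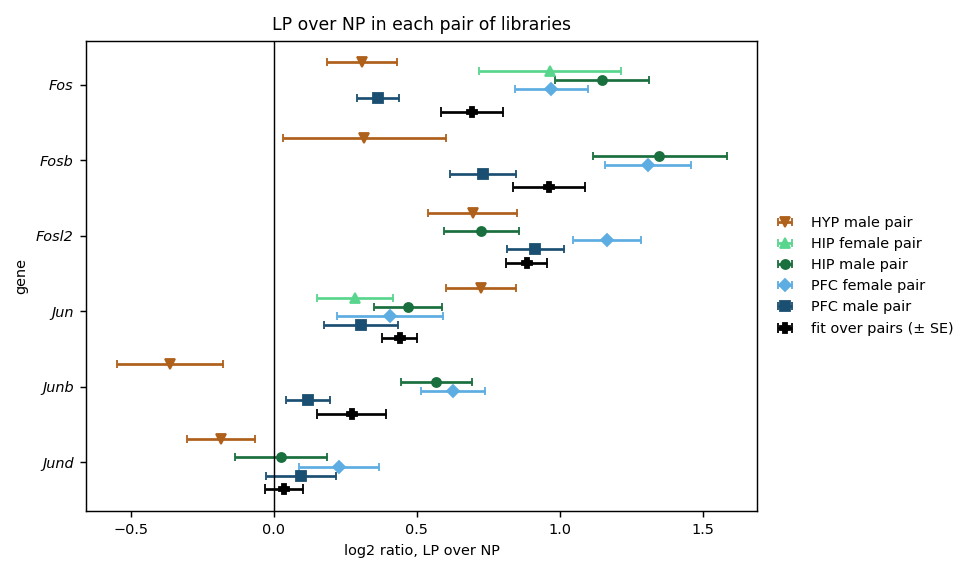
Log2 ratio of LP over NP (horizontal axis) for each AP-1 gene in each pair of libraries, with 95% Poisson intervals of the counts, and the fit over all pairs in black with its SE. Fosb and Fos reach 1.35 and 1.15 in male hippocampus, Fosl2 stays between 0.70 and 1.17, and Junb and Jund fall below 0 in hypothalamus.

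In prefrontal cortex, where all 6 genes were measured in all 4 libraries, 5 of the 6 were higher in LP than in NP. A fit of these libraries alone called 2.10% of 15996 genes higher, with 1 residual degree of freedom and a spread drawn almost wholly from all genes. The log2 difference was 1.03 ± 0.07 for Fosl2, 0.99 ± 0.08 for Fosb and 0.63 ± 0.07 for Fos. It was 0.35 ± 0.07 for Junb (edgeR adjusted p = 2.59e-05), 0.34 ± 0.08 for Jun (adjusted p = 0.0018) and 0.15 ± 0.08 for Jund, which did not pass (adjusted p = 0.308). These SEs and p-values thus hardly measure how far a gene's own pairs differ. For Junb the pair log2 ratios were 0.12 in males and 0.63 in females. DESeq2 and a fit with no filter on low counts each called 2 of the 6, and both called Fosl2. DESeq2 lost Fosb (adjusted p = 0.103), Jun and Junb, and the unfiltered fit lost Fos (adjusted p = 0.0662), Jun and Junb. In the edgeR fit of these libraries 10 of 10 oligodendrocyte, 5 of 5 blood and 3 of 8 astrocyte markers fell. In it 7 of 14 heat shock genes rose, and the part of these groups in the AP-1 values was not tested.

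Within hippocampus, the diet could be tested only for Fos and Jun, in a fit of all 10 libraries with a diet term for each region. Both were higher in LP, Fos by 1.08 ± 0.13 and Jun by 0.38 ± 0.07 on the log2 scale (edgeR adjusted p = 0.000958 and 0.0429), against 0.192% of 11433 genes called higher. In prefrontal cortex the same fit gave 0.63 ± 0.10 for Fos and 0.35 ± 0.08 for Jun (adjusted p = 0.00732 and 0.0415), against 0.796% of genes. The Jun calls were lost with DESeq2, and both genes' calls in both regions were lost with no filter on low counts. Without the female prefrontal cortex pair, neither gene passed in prefrontal cortex, and Jun did not pass in hippocampus (adjusted p = 0.0513). Jun also did not pass in hippocampus without the male hippocampus pair (adjusted p = 0.798), or in prefrontal cortex without the male prefrontal cortex pair (adjusted p = 0.374).

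Fos and Jun were the members for which the step between diets could be compared between hippocampus and prefrontal cortex or between sexes, and no difference passed. For hippocampus minus prefrontal cortex, the difference between the 2 diet effects was 0.45 ± 0.17 for Fos and 0.03 ± 0.11 for Jun on the log2 scale (edgeR adjusted p = 0.915 and 0.996). In that comparison 0 of 11433 genes passed by edgeR and 0 by DESeq2, with 592 genes at an unadjusted p under 0.05. The Fos difference was 0.11 without the male prefrontal cortex pair and 0.71 without the female one (adjusted p = 0.0528), and neither passed. For female minus male it was 0.29 ± 0.19 for Fos and -0.06 ± 0.10 for Jun (adjusted p = 0.807 and 0.926), with 0.173% of 10973 genes called in either direction. This rested on single pairs, since without the male hippocampus pair the Fos difference was 0.60 (adjusted p = 2.4e-05) and without the male prefrontal cortex pair it was -0.19.

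Because Junb and Jund went the other way in the hypothalamic pair, hypothalamus was also set against the other 2 regions, a comparison chosen after those values were seen. None of the 6 members passed, against 0.479% of 17547 genes called in either direction. The difference in log2 diet effect was -0.78 ± 0.19 for Junb and -0.30 ± 0.11 for Jund (edgeR adjusted p = 0.120 and 0.315), and 0.36 ± 0.11 for Jun (adjusted p = 0.211). Hypothalamus has 1 pair, whose LP library carries a sample code of another ending than the other 9, and its 2 libraries differ in region markers, at a summed 557 CPM over 10 hypothalamus markers in LP and 963 CPM in NP. The part of either in these values was not tested.

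Genes around AP-1 were read from lists named by their role, which like the members were chosen with earlier results of these data known. Of 13 other AP-1 and small Maf genes tested, whose proteins share the leucine zipper and can pair with Fos or Jun, none passed in the fit over all pairs, and the median log2 difference was 0.12. Maff and Atf3, both themselves inducible, had 0.82 ± 0.24 and 0.72 ± 0.19 without passing (edgeR adjusted p = 0.147 and 0.101), and are named because they stood apart once the values were seen. Of 20 kinases upstream of AP-1, Rps6ka2, a kinase of the ribosomal S6 family, passed at 0.21 ± 0.04 (adjusted p = 0.0409), and the median was 0.00. Of 17 factors that drive the Fos and Jun promoters, Srf, the serum response factor, passed at 0.22 ± 0.05 (adjusted p = 0.0428), with a median of 0.05. Of 22 genes known as AP-1 targets, Bdnf, a neurotrophin, passed at 0.44 ± 0.09 (adjusted p = 0.0360), with a median of 0.15.

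Other immediate early genes rose as well. Of 29 tested, 14 were higher in LP and none was lower, with a median log2 difference of 0.43. The 6 with the smallest p were Homer1, whose short form loosens postsynaptic scaffolds, at 0.62 ± 0.05 (edgeR adjusted p = 6.68e-05), the nuclear receptor Nr4a2 at 0.99 ± 0.09 (adjusted p = 0.000191) and the clock gene Per1 at 0.40 ± 0.05 (adjusted p = 0.00105). Nr4a3, Ier5 and Egr4 followed at 0.78 ± 0.11, 0.35 ± 0.05 and 0.66 ± 0.10 (adjusted p = 0.00341, 0.0072 and 0.0118). Fos, Fosb and Fosl2 lie within the range of these genes.

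**Figure D3:**
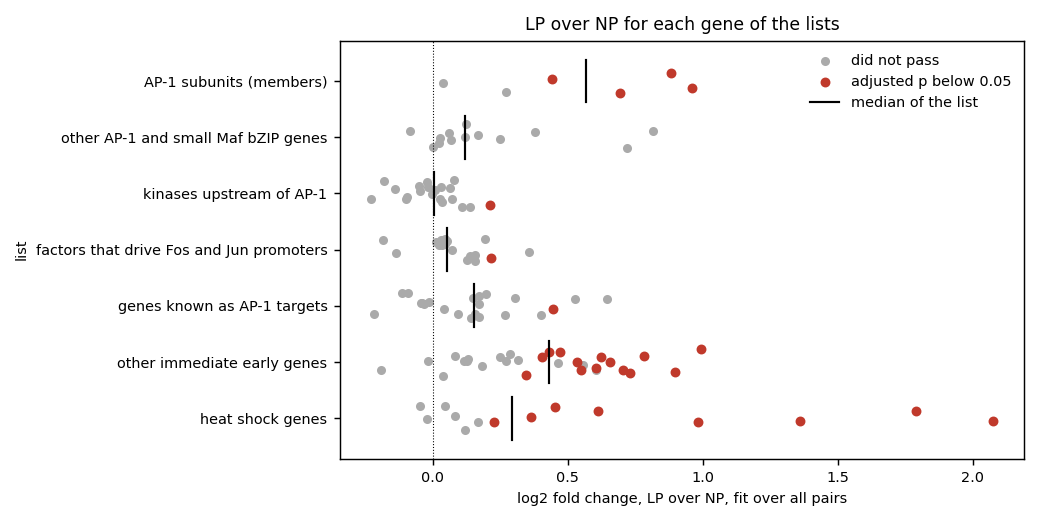
Log2 difference of LP over NP (horizontal axis, fit over all pairs) for each gene of 7 lists, with genes past an adjusted p of 0.05 in red and the median of each list as a bar. The medians are 0.57 for the AP-1 subunits, 0.43 for the other immediate early genes and 0.29 for the heat shock genes, and lie between 0.00 and 0.15 for the other 4 lists.

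Other gene groups moved with diet in the same libraries. Of 14 heat shock genes, 8 rose in LP, among them the cochaperone Dnajb1 at 0.98 ± 0.07 and the small heat shock protein gene Hspb1 at 1.36 ± 0.15 on the log2 scale (edgeR adjusted p = 2.95e-05 and 0.000982). Summed over the list they had 5369 to 6429 CPM in LP and 4654 to 5351 CPM in NP libraries, higher in LP in 4 of 4 complete pairs. Of 5 blood genes tested, the 4 globin genes fell in LP, and the list of 6 summed to 343 to 1261 CPM in LP and 449 to 1850 CPM in NP, lower in LP in 4 of 4 pairs. Of 10 oligodendrocyte markers, Opalin alone passed and was lower in LP, while all 10 had log2 differences below 0, with a median of -0.30. The oligodendrocyte list summed to 1672 to 6603 CPM in LP and 1966 to 6006 CPM in NP, higher in LP in 1 of 4 pairs. None of 10 neuron, 8 astrocyte or 10 microglia markers passed, and no blood or oligodendrocyte marker was at 0 in all libraries. Single markers of other tissues moved too, with Ttr of choroid plexus and Slc2a1 of endothelium higher in LP, and Gh and Prl of pituitary and Hcrt, Pmch, Oxt and Avp of hypothalamus lower. The hypothalamus list summed to 557 CPM in LP and 963 CPM in NP hypothalamus, against 2.01 to 4.15 CPM in complete libraries of the other regions. The calls of hypothalamus markers thus rest mainly on the 1 hypothalamic pair. The pituitary list summed to 3.88 to 152 CPM in LP and 2.93 to 555 CPM in NP libraries, and was higher in LP in 1 of 4 pairs. The 555 CPM stood in the NP library of male hippocampus, whose LP partner had 3.89 CPM. That pair also held the widest steps of Fos and Fosb. The part of any of these groups in the AP-1 differences was not tested.

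The AP-1 genes differed between regions, and not all in the same direction. Fos, Fosb, Fosl2, Junb and Jund were lower in hippocampus than in prefrontal cortex, and Jun was higher. In hypothalamus all but Jun were lower than in prefrontal cortex, with Fosb and Junb 8.73 and 7.43 times lower. Most genes tested differed between regions by the same test, so these counts stand near the background, which was 53.4% of 17550 genes for hippocampus over prefrontal cortex (6 of 6 members), 63.6% for hypothalamus over prefrontal cortex (5 of 6) and 60.3% for hypothalamus over hippocampus (5 of 6).

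For hippocampus over prefrontal cortex the log2 difference was -2.08 ± 0.12 for Fos (edgeR adjusted p = 4.10e-09), -1.75 ± 0.13 for Fosb, -1.15 ± 0.13 for Junb, -0.79 ± 0.07 for Fosl2 and -0.71 ± 0.08 for Jund. That of Jun was 0.52 ± 0.09 (adjusted p = 0.000307). Its range was 76.0 to 115 CPM in 4 hippocampus libraries and 41.7 to 88.2 CPM in 4 prefrontal cortex libraries, so the ranges overlapped, while within each sex and diet the hippocampus library was the higher. For Fos the ranges were 18.0 to 79.8 CPM in hippocampus and 73.3 to 268 CPM in prefrontal cortex.

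Hypothalamus was sampled in males only, and sex entered the fit as a term. For hypothalamus over prefrontal cortex the log2 difference was -3.13 ± 0.17 for Fosb and -2.89 ± 0.18 for Junb. It was -1.89 ± 0.15 for Fos, -1.83 ± 0.09 for Fosl2 and -0.36 ± 0.09 for Jund, while Jun, at -0.20 ± 0.12, did not pass (edgeR adjusted p = 0.149). Over hippocampus, hypothalamus was lower in Junb (-1.75 ± 0.18), Fosb (-1.38 ± 0.19), Fosl2 (-1.04 ± 0.09) and Jun (-0.72 ± 0.12) and higher in Jund (0.35 ± 0.09, adjusted p = 0.00436). Fos, at 0.19 ± 0.15, did not pass over hippocampus (adjusted p = 0.310), and the Jund call was lost without the NP hypothalamus library (0.20, adjusted p = 0.0685), while Fos passed without the LP hypothalamus library (0.43, adjusted p = 0.0450) and Jun over prefrontal cortex did too (-0.40, adjusted p = 0.0277).

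Levels per length, in CPM per kilobase of exon, allow genes to be set against each other. In hypothalamus (2 libraries) Jund led with 38.5 to 43.7, followed by Fos with 24.5 to 30.4 and Jun with 15.7 to 25.9, which overlapped, then Junb with 10.8 to 13.9, Fosl2 with 3.25 to 5.27 and Fosb with 1.70 to 2.12. In hippocampus Junb had 31.5 to 46.7, Jund 30.6 to 33.8 and Jun 23.8 to 35.96, ahead of Fos with 7.67 to 33.9, Fosl2 with 6.56 to 10.9 and Fosb with 2.81 to 7.14, and each neighbour in that order overlapped the next. Here Fos and Jun have 4 libraries and the others 3.

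In prefrontal cortex (4 libraries) Junb had 46.0 to 100.3, Fos 31.2 to 114 and Jund 44.9 to 55.2 CPM per kilobase. These 3 overlapped one another and lay above Jun with 13.1 to 27.6, Fosb with 8.00 to 21.1 and Fosl2 with 8.45 to 19.7, which overlapped in turn.

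Summed per length, the 6 genes had 113 (LP) and 103 (NP) CPM per kilobase in hypothalamus, 166 (LP) and 113 (NP) in male hippocampus, 241 (LP) and 152 (NP) in female prefrontal cortex, and 338 (LP) and 278 (NP) in male prefrontal cortex. The sum was higher in LP in each of these 4 pairs. The 3 Fos-family genes made up 33.4% of it in LP and 28.7% in NP hypothalamus, 31.3% (LP) and 21.9% (NP) in male hippocampus, 41.4% (LP) and 31.4% (NP) in female prefrontal cortex, and 45.8% (LP) and 40.2% (NP) in male prefrontal cortex. The Fos-family share was thus the higher one in LP in 4 of 4 pairs, a description with no test. In the LP library of female hippocampus the sum was 129 and the share 23.8%.

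**Figure D4:**
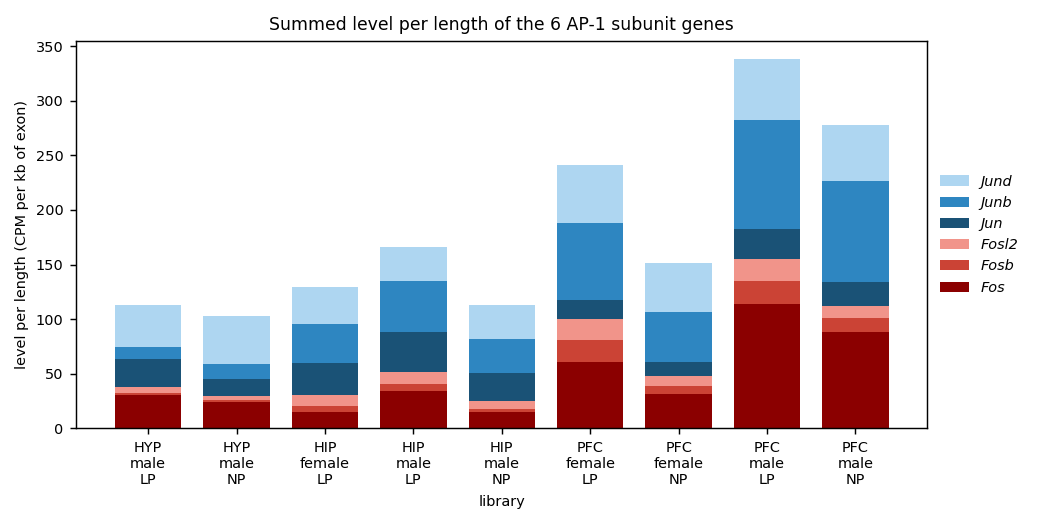
Stacked level per length (CPM per kilobase of exon, linear axis from 0) of the 3 Fos-family genes (reds) and 3 Jun-family genes (blues) in 9 libraries of hypothalamus (HYP), hippocampus (HIP) and prefrontal cortex (PFC). The stack is tallest in male prefrontal cortex, at 338 in LP and 278 in NP, and Jund is the largest band in hypothalamus.

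Female libraries had less Fos, Junb and Jun than male ones of the same region and diet. Of the 6 genes these 3 were lower by edgeR's test over pairs of female and male libraries, against 0.216% of 16703 genes called lower. Fos had 35.2 CPM in female and 79.8 in male LP hippocampus, 18.0 (female) and 36.04 (male) in NP hippocampus, 144 (female) and 268 (male) in LP prefrontal cortex and 73.3 (female) and 208 (male) in NP prefrontal cortex. Females were lower in 4 of 4 pairs, and by the widest step in NP prefrontal cortex (log2 ratio -1.51). The log2 difference was -1.14 ± 0.08 (adjusted p = 1.47e-05), or 2.21 times lower.

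Junb had 82.1 CPM in female and 107 in male LP hippocampus, 164 (female) and 231 (male) in LP prefrontal cortex, and 106 (female) and 212 (male) in NP prefrontal cortex. Females were lower in 3 of 3 pairs, with a log2 difference of -0.63 ± 0.08 (edgeR adjusted p = 0.000433), which did not pass with DESeq2 (adjusted p = 0.216) or with no filter on low counts (adjusted p = 0.0651). Jun was lower in females in 4 of 4 pairs at -0.44 ± 0.08 (edgeR adjusted p = 0.0437). Its pair log2 ratios were -0.31 and -0.12 in LP and NP hippocampus and -0.67 and -0.77 in LP and NP prefrontal cortex. The Jun call was lost when any of 3 pairs was left out (adjusted p = 0.0536 to 0.187) and with no filter on low counts (adjusted p = 0.0897).

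Fosb, Fosl2 and Jund did not pass, at -0.33 ± 0.08, -0.15 ± 0.06 and -0.06 ± 0.06 (edgeR adjusted p = 0.112, 0.409 and 0.852). Fosb passed when the LP pair of prefrontal cortex (-0.50, adjusted p = 0.00757) or of hippocampus (-0.34, adjusted p = 0.00283) was left out. Among the other immediate early genes 10 of 29 were lower in females and none higher, with a median log2 difference of -0.36. Ccn1, which encodes a matrix protein, had -1.64 ± 0.16, the antiproliferative gene Btg2 -1.45 ± 0.21 and the neuronal factor Npas4 -1.12 ± 0.16 (adjusted p = 0.000412, 0.00916 and 0.00916), the 3 of lowest value, named after their values were seen. Of 14 heat shock genes, Dnajb1 was lower in females (-0.58 ± 0.07), and of 21 AP-1 targets, Nptx2, a secreted synaptic pentraxin, and Vgf, a neuropeptide precursor gene, were higher (0.36 and 0.23). Of the marker lists, Sox9 of astrocytes and Gh of pituitary were lower and Slc2a1 of endothelium was higher in females, and their part in the AP-1 values was not tested. The pituitary list summed to 555 CPM in the male NP hippocampus library. In LP hippocampus it went the other way, with 13.1 CPM in the female and 3.89 CPM in the male library.

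**Figure D5:**
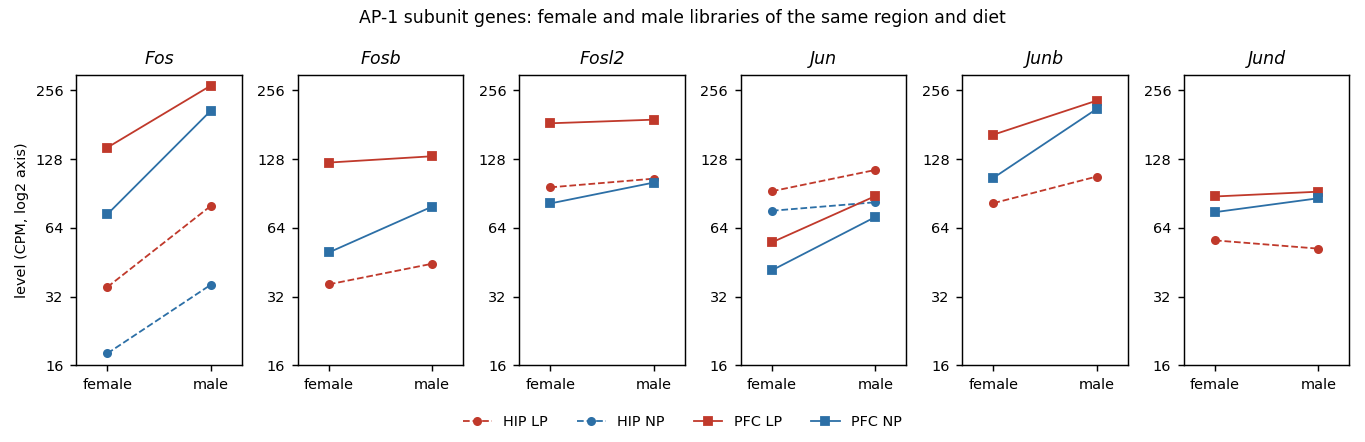
Level of each AP-1 gene (CPM, log2 axis) in female and male libraries of the same region and diet, joined by a line, for hippocampus (HIP, dashed) and prefrontal cortex (PFC, solid) in LP (red) and NP (blue). Fos is lower in the female library of all 4 pairs, with 73.3 CPM in female and 208 CPM in male NP prefrontal cortex, while those of Fosl2 and Jund are nearly flat.

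The members did not all follow one another across libraries. Over the 9 libraries in which both were counted, Pearson's r of log2 CPM was 0.95 for Fosb and Fosl2, 0.94 for Fosb and Junb and 0.83 for Fos and Jund. It was -0.07 for Fos and Jun over 10 libraries and -0.51 for Jun and Jund over 9. The libraries share regions, so that these values mix region, sex and diet, and are a description only.

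Of 12447 genes with a mean of at least 5 CPM, those most like each member by the same measure were taken in order of r. For Fosb they were Sertad1, Per1 and Egr2 (0.981, 0.979 and 0.978), for Junb Nr4a1, Zfyve27 and Urb1 (0.991, 0.984 and 0.984), and for Fos Irf2bp2, Igdcc4 and Gm7332 (0.981, 0.961 and 0.950), each over 9 libraries. For Fosl2 they were Mknk2, Amigo3 and Samd4b (0.984, 0.979 and 0.974) and for Jund Oaz1, Ftl1 and 1810037I17Rik (0.979, 0.976 and 0.974), also over 9. For Jun they were Adamts1, Hexim1 and Moxd1 (0.946, 0.912 and 0.903) over 10 libraries. For Fos and Jun, genes not counted in the incomplete library were ranked by r over 9 libraries and the others over 10. The orders for Fos and Jun thus mix unlike sets of libraries.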

How the data were processed

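The deposited table holds the authors' whole-number counts by Ensembl gene ID, which were not normalized. Per the submitters' processing notes, CASAVA, FastQC 0.10.1 and STAR 2.5.0a were used with mm10, and per the labels' protocols libraries were made with a TruSeq RNA kit from 1 µg of total RNA. For the counting tool, its strand setting and its annotation, the sources used here name nothing. Of 47729 gene IDs, 47224 matched GENCODE M21. The members and gene lists were chosen with earlier results of these data known.

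Genes were kept by filterByExpr (minimum count 10) and libraries scaled by TMM. Tests used edgeR 4.0.16 (R 4.3.3), quasi-likelihood, Benjamini-Hochberg at 0.05 over all genes tested, with DESeq2 1.42.0 as an alternative. Diet was fitted over 5 strata of region and sex, regions with sex and diet as terms, and sexes over strata of region and diet. The NP library of female hippocampus lacks counts for 19598 genes: among genes averaging at least 50 counts, 4486 of 4501 past the break had 0 there, against 4 of 8581 before it. These genes were fitted without that library, in the diet fit without its LP partner too, and are absent from the diet fits within regions or by sex, and the p-values of both sets were adjusted together. Levels are CPM over TMM-scaled totals. The incomplete library's total, 7871010, was replaced by estimates from the other hippocampus libraries. These were 11793752.5 without TMM scaling and 11471500 with it, and its levels rest on the latter. Poisson intervals and the limit for 0 counts cover counting error only. Named genes were the 6 members, up to 6 genes of each list with the smallest p past the threshold, and the 3 genes most like each member.

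The fits were also run on simulated counts, which held no differences between regions or sexes apart from the effect tested. They were thus unlike these libraries, and no result given here rests on them. Alternatives were another tool, normalization, filter and quasi-likelihood method, no strata, and each pair or library left out.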

Additional observations from a re-analysis of the deposited data

Results flagged for a closer look

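The LP over NP log2 ratio of Junb was -0.36 in hypothalamus, while its pairs in hippocampus and prefrontal cortex were all above 0, and the test of that difference gave an edgeR adjusted p of 0.120. Jund likewise had -0.18 in hypothalamus and values above 0 in the other regions (adjusted p = 0.315). Jund was higher in females in hippocampus, with a log2 ratio of 0.12 in the LP pair, and lower in females in both prefrontal cortex pairs (-0.07 in LP and -0.20 in NP), a difference that was not tested.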

How the results depend on the processing

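In the fit over all pairs 4 members were called by DESeq2, with RLE scaling, with no filter, with the earlier quasi-likelihood method and without the female hippocampus pair, and 2 to 5 when a pair was left out. Without the replicate block, that is without strata, 4 were called, and 222 genes in all against 212 with it. The strata come from the labels' region and sex. Left-out pairs gave 0 to 2 members in prefrontal cortex and 1 to 2 in hippocampus in the shared fit, 0 to 1 for female minus male diet effects and 2 to 3 for female over male. DESeq2 called 1 in each region of the shared fit and 2 in the prefrontal cortex libraries alone. With no filter the counts were 0, 0 and 2, and 1 for female over male. Among differences that did not pass, some changed sign when a pair or library was left out. Jund over all pairs ran from -0.023 (without the female prefrontal cortex pair) to 0.12, and Jun for hippocampus minus prefrontal cortex from -0.075 (without male hippocampus) through -0.025 (without male prefrontal cortex) to 0.13. For female minus male diet effects Fos ran from -0.19 (without male prefrontal cortex) to 0.60, and Jun from -0.15 to 0.021, the last without male hippocampus, and was 0.0098 without female hippocampus. Fos for hypothalamus over hippocampus ran from -0.042 (without the NP hypothalamus library) to 0.43, and Jund for female over male from -0.13 to 0.020 (without NP prefrontal cortex). The cause was not tested. Counts over all genes moved by more than 1.5 times: 121 with DESeq2 and 72 to 235 with a pair left out, against 212 over all pairs; 13 with DESeq2, 21 with no filter and 48 to 497 with a pair left out, against 152 in prefrontal cortex; 11, 5 and 34 to 79 against 31 in hippocampus. They were 31 and 51 (DESeq2, no filter) against 781 in the prefrontal cortex libraries alone, 21 and 34 against 84 for hypothalamus against the other regions, 12, 0 and 4 to 197 against 19 for female minus male, 0 to 34 with a pair left out and 1 with the earlier quasi-likelihood method against 0 for hippocampus minus prefrontal cortex, and 33, 30 and 43 to 97 against 71 for female over male. With 1 residual degree of freedom, no library of the prefrontal cortex fit could be left out.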
